A study of Mus musculus with 12 samples.

Results

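The effect of visuospatial training on gene expression in the anterior cingulate cortex (ACC) was measured by comparing ACC trained pools 1 to 3 with ACC control pools 1 to 3. These were 6 of the 12 arrays of the series. The other 6 held hippocampus (HC) from mice of the same study, though the ACC and HC pools need not hold the same mice. All 27381 genes of the arrays were compared. The mice were C57B16/J, in the spelling of the labels, and were 8 to 12 weeks old at surgery. Trained mice learned to run in the direction signalled by a visual cue to receive water and were trained for 27 ± 2.6 days, the average with its error as the labels give it. Control mice, titled untrained, shared the head fixation, the water restriction and the number of days, but water came at random times whatever the cue or the run. According to the paper, each trained mouse was paired with a control littermate of the same sex. Tissue was taken within a day of the trained mouse reaching criterion. Each ACC pool held RNA of 5 mice, without a separate size for the repeat experiment, and the labels list 16 male and 18 female mice without assigning them to pools. Pools 1 and 2 of each group came from batch 1 and pool 3 from batch 2, so each batch held both groups. A pool averages its mice, so every p-value below measures the spread between pools. For single genes, standard errors and p-values came from a joint fit of all 12 arrays. Their spread therefore includes the HC pools and is not that of the 6 ACC pools alone. In bulk tissue, fewer cells of a type and less RNA per cell cannot be told apart.

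The ACC is a medial frontal area that links actions to their outcomes and signals when effort or attention must be adjusted. Activity in cortical neurons switches on immediate early genes such as Fos and Arc within minutes, and their products act on slower genes for synapses, growth factors and metabolism. Learning also engages myelin, the extracellular matrix around neurons and the immune signalling of glia, so lists of genes for each were examined. Most region markers, though not all, followed the tissue label. Among 20 measured markers of the cortical layers, the ACC mean exceeded the HC mean for 15. The 6 ACC pools lay above all 6 HC pools for 10 of the 20 and below them all for 3. Of 16 hippocampal subfield genes, 14 were higher in HC, 13 without overlap, and 2 in ACC, 1 without overlap. Of 16 striatal neuron genes, 11 were higher in ACC, 5 without overlap, and 5 in HC, 0 without overlap. Cckbr, the brain receptor of cholecystokinin, had the largest excess in ACC of the cortical layer markers. It ran from 8.20 to 8.54 in ACC (median 8.38) and from 6.0 to 6.91 in HC (median 6.35), in log2 expression units. Prox1, a transcription factor that dentate gyrus granule cells need, ran from 4.53 to 4.95 in ACC and from 7.11 to 7.37 in HC. For all 16 measured choroid plexus genes the mean was lower in ACC than in HC.

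The 6 ACC arrays were close to each other. Their medians ran from 3.36 to 3.42, and correlations across genes were 0.994 to 0.995 within a group and 0.993 to 0.995 between groups. A difference of 1 on the log2 scale is a doubling, and all differences are given as trained minus control. The median difference was 0.00, the central 95 percent of genes lay between −0.30 and 0.27, and the median standard error (SE) was 0.11. Differences above 0.5 in size occurred for 150 genes and above 1 for 1 gene, Uty, on the Y chromosome. The 1365 odorant and vomeronasal receptor genes, which the cortex has little use for, served as the background, and 15831 genes had a mean ACC level above their 95th percentile of 2.83.

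No gene separated the trained from the control pools after adjustment for the number of genes. In the limma fit 0 of 27381 genes (0%) had an adjusted p under 0.05, and the lowest value was 0.187. Without adjustment, 810 genes were higher in the trained pools at p under 0.05 (2.96%) and 1092 were lower (3.99%), 1902 in both directions (6.95%). For genes above background these shares were 2.78% and 3.22%. When each array was centred on its own median the split was 1425 higher and 649 lower, so the balance of directions depended on the scaling. The 3 trained pools lay entirely above the 3 control pools for 1550 genes (5.66%) and entirely below for 1619 (5.91%), or 2684 and 948 after this centring. Over all genes 50.6% had a positive difference and 49.4% a negative one, and among the genes above background 54.4% and 45.6%. Above background the pools did not overlap for 6.24% upward and 4.84% downward. The following values are therefore descriptions of the largest and of the best measured differences, none of which passed the adjusted test.

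**Figure D1:**
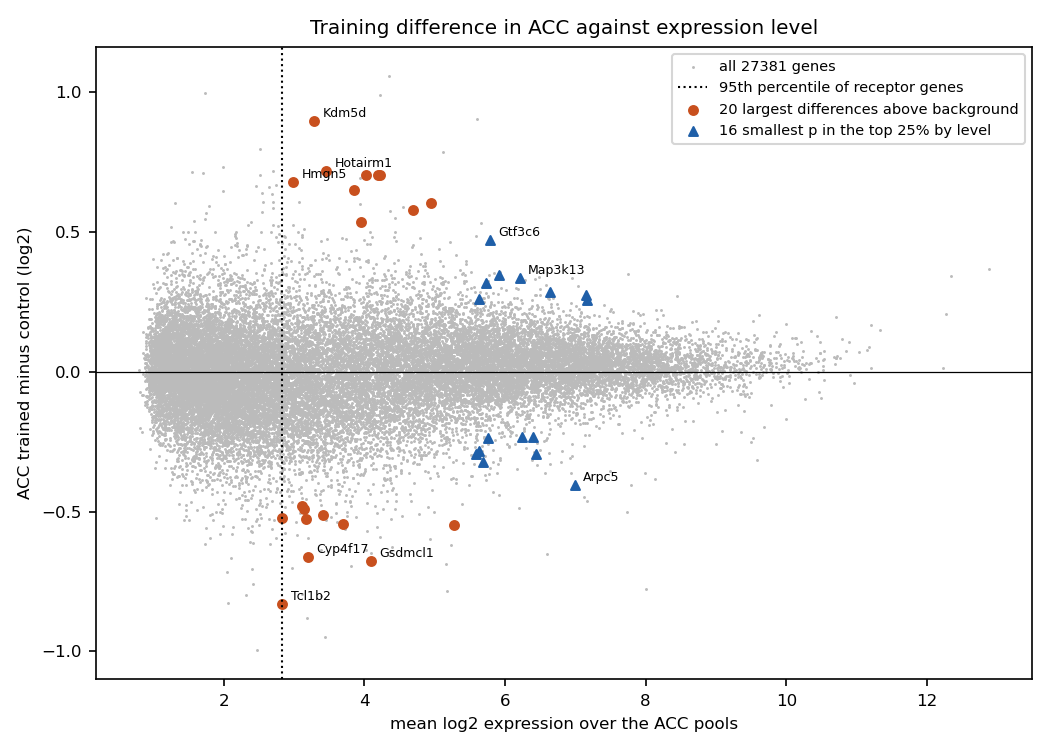
Trained minus control difference in ACC (vertical axis, log2) against mean log2 expression over the 6 ACC pools (horizontal axis) for all 27381 genes, with the 95th percentile of receptor genes (2.83) dotted. The marked genes of the top 25% by level (triangles) had differences between −0.41 and 0.47.

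The gene with the smallest p was Tcl1b2, one of a cluster of Tcl1 family genes on chromosome 12 that are known from mouse oocytes and early embryos. Its log2 expression was 3.39, 3.36 and 3.00 in control pools 1, 2 and 3, and 2.56, 2.20 and 2.49 in trained pools 1, 2 and 3. Every trained pool was below every control pool, and the trained values lay under the background percentile. The difference was −0.83 (SE 0.12, adjusted p = 0.187 from limma). It was −0.99 in batch 1 and −0.51 in batch 2. Its relatives did not share this pattern. Tcl1b4 differed by −0.30 (SE 0.15) with overlapping pools, Tcl1b1 by −0.06, Tcl1b5 by −0.08 and Tcl1b3 by 0.08, and all but Tcl1b1 were under the background percentile. An antibody gene segment, Ighv1-34, had the same adjusted p (0.187), with a difference of 1.00 at a level of 1.73, below background.

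The 10 largest positive differences among named genes above background, with p under 0.01 and no overlap between the groups, ran from 0.54 to 0.90. Kdm5d, a histone demethylase of the Y chromosome, was 2.85, 2.82 and 2.84 in the control pools and 4.35, 3.38 and 3.48 in the trained pools (difference 0.90, SE 0.30). The other Y-linked genes on the list differed the same way. Eif2s3y differed by 0.99 (SE 0.35) and Uty by 1.06 (SE 0.42), while Xist, the RNA of the inactive X chromosome, differed by −0.78 (SE 0.39). The mean of the 3 Y-linked genes was 3.59, 3.38 and 3.41 in control pools and 5.11, 3.89 and 4.33 in trained pools, and Xist was 8.45, 8.52 and 8.20 in control and 6.66, 8.18 and 8.00 in trained pools. Trained pools thus held more Y-linked and less Xist signal than control pools, most of all trained pool 1. With an index of these genes as a covariate, 742 genes were higher and 999 lower at an unadjusted p under 0.05. Of 111 genes followed, 29 moved by over 1.5 times or turned sign with this covariate, and 10 of the 41 list medians turned sign.

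The other large positive differences belonged to genes of varied roles. Hotairm1, a long noncoding RNA of the HoxA cluster, was 3.25, 3.23 and 2.81 in control and 3.82, 3.91 and 3.70 in trained pools (0.72, SE 0.19). Ska2, part of the spindle and kinetochore complex that holds chromosomes to microtubules, was 4.06, 3.88 and 3.59 in control and 4.55, 4.56 and 4.53 in trained pools (0.70, SE 0.16). The 3 trained pools of Ska2 were almost equal, and the spread was in the controls. Zfp946, a zinc finger gene, had the same form, with 3.83, 3.78 and 3.41 in control and 4.40, 4.39 and 4.34 in trained pools (0.70, SE 0.16). Hmgn5, an X-linked nucleosome-binding protein, differed by 0.68 (SE 0.18), and its highest value, 3.70, was in trained pool 1. With the sex-linked index as a covariate it differed by 0.36. Swsap1, a partner of a DNA recombination protein, differed by 0.70 (SE 0.20), but by 1.01 in batch 1 and 0.09 in batch 2. The groups of Swsap1 barely parted in batch 2, where control pool 3 was 4.29 and trained pool 3 was 4.38. Tmem258, a subunit of the enzyme that attaches sugar chains to new proteins, differed by 0.58 (SE 0.16) and Prps1l3, a relative of the enzyme that starts nucleotide synthesis, by 0.54 (SE 0.16). The last members were the pseudogenes Rps13-ps2 (0.65, SE 0.16) and Tmem229b-ps (0.60, SE 0.11), whose probes may also read near-identical copies.

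**Figure D2:**
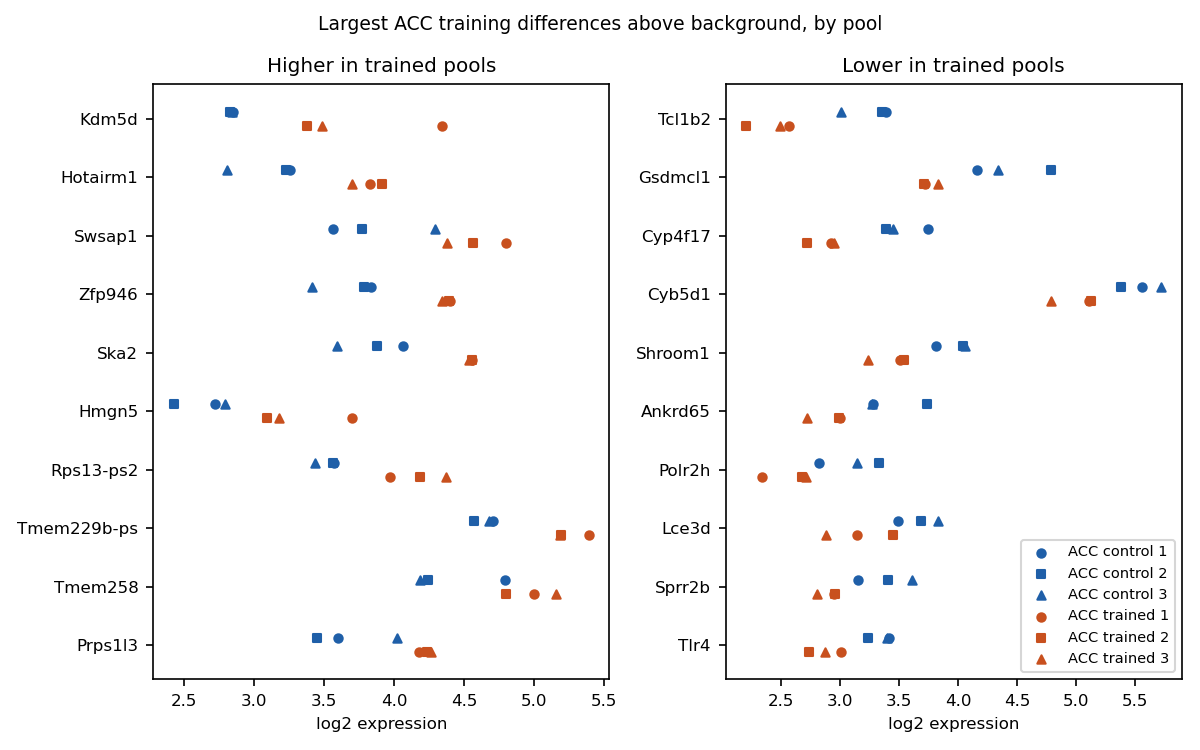
Log2 expression of the 10 largest positive (left) and 10 largest negative (right) ACC differences above background, with 1 point per pool (blue control, orange trained, marker shape for the pool number). Groups do not overlap for any of the 20 genes because the choice required it, and Kdm5d and Hmgn5 are highest in trained pool 1. Tcl1b2 passed the background filter only through its control pools.

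The 10 largest negative differences ran from −0.83 to −0.48 and began with Tcl1b2. The background filter used the mean of the 6 ACC pools, and Tcl1b2 passed it only through its control pools. All its trained pools lay under the limit of 2.83. Gsdmcl1, of the gasdermin family of pore-forming proteins, was 4.16, 4.79 and 4.34 in control and 3.71, 3.71 and 3.83 in trained pools (−0.68, SE 0.17). Cyp4f17, a cytochrome P450 of fatty acid metabolism, was 3.74, 3.39 and 3.45 in control and 2.92, 2.72 and 2.95 in trained pools (−0.66, SE 0.16). Cyb5d1, with a cytochrome b5 domain, was the best expressed of the 10 at 5.56, 5.38 and 5.72 in control and 5.10, 5.12 and 4.79 in trained pools (−0.55, SE 0.14). Tlr4, the receptor for bacterial lipopolysaccharide that microglia carry in the brain, was 3.42, 3.23 and 3.40 in control and 3.01, 2.74 and 2.87 in trained pools (−0.48, SE 0.11), and it differed by about as much in batch 1 (−0.45) as in batch 2 (−0.53). Shroom1, an actin-binding protein, differed by −0.55 (SE 0.14), Ankrd65 by −0.53 (SE 0.15) and Polr2h, a subunit shared by the nuclear RNA polymerases, by −0.52 (SE 0.15). A pair of genes of the skin barrier closed the set, Lce3d (−0.51, SE 0.16) and Sprr2b (−0.49, SE 0.14). Adjusted p from limma was 0.187 to 0.574 over these 20 genes, which were the extremes of 80 higher and 84 lower genes that met the same conditions.

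In well expressed genes the middle of the differences was narrower, with an interquartile range of −0.03 to 0.07 against −0.08 to 0.08 over all genes. In the top 25% by level (6846 genes, mean ACC level of 5.57 or more), 4275 genes had a positive and 2571 a negative difference, and 134 were higher and 56 lower at an unadjusted p under 0.05. Arpc5, a subunit of the Arp2/3 complex that nucleates branched actin in dendritic spines and elsewhere, had the smallest p of this set. It was 7.13, 7.25 and 7.21 in control and 6.86, 6.72 and 6.79 in trained pools. The gap between the groups was wider than the spread inside either, and the difference was −0.41 (SE 0.08, adjusted p = 0.505 from limma), with −0.40 in batch 1 and −0.42 in batch 2. Smad1, which carries bone morphogenetic protein signals to the nucleus, was 6.53, 6.68 and 6.54 in control and 6.36, 6.25 and 6.26 in trained pools (−0.29, SE 0.08). Others lower in the trained pools were Jmjd6 (−0.28, SE 0.08), a protein hydroxylase, Mettl7a1 (−0.32, SE 0.10), Map3k11 (−0.29, SE 0.09), a kinase upstream of JNK, Tmem134 (−0.23, SE 0.08), Cyc1 (−0.23, SE 0.08), the cytochrome c1 of respiratory complex III, and Fam241b (−0.24, SE 0.08).

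On the higher side of the well expressed genes, Map3k13, another kinase upstream of JNK, was 5.98, 6.09 and 6.06 in control and 6.47, 6.27 and 6.39 in trained pools (0.33, SE 0.08). Snapin, which binds the SNARE protein SNAP-25 and takes part in vesicle release and lysosome transport, was 6.47, 6.55 and 6.48 in control and 6.81, 6.75 and 6.80 in trained pools (0.29, SE 0.08). Usp46, a deubiquitinating enzyme of synapses, was 7.14, 6.98 and 6.94 in control and 7.39, 7.25 and 7.24 in trained pools (0.27, SE 0.08). For Snapin the gap between the groups was wider than the spread inside either, while for Map3k13 and Usp46 it was about as wide or narrower. Gtf3c6, a subunit of the transcription factor of tRNA genes, differed by 0.47 (SE 0.12), Omg, a myelin-associated inhibitor of axon growth, by 0.35 (SE 0.10), Rbm12b2, an RNA-binding protein, by 0.32 (SE 0.08), Hsdl2 by 0.26 (SE 0.07) and Zc2hc1a by 0.26 (SE 0.08). For these 16 genes adjusted p from limma was 0.505 to 0.604. None overlapped between groups, which fixes the same direction in both batches.

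Over the 15831 genes above background, the difference in batch 1 and the difference in batch 2 were nearly unrelated, with a correlation across genes of r = 0.01. Genes are not independent replicates, and batch 2 had 1 pool a side.

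**Figure D3:**
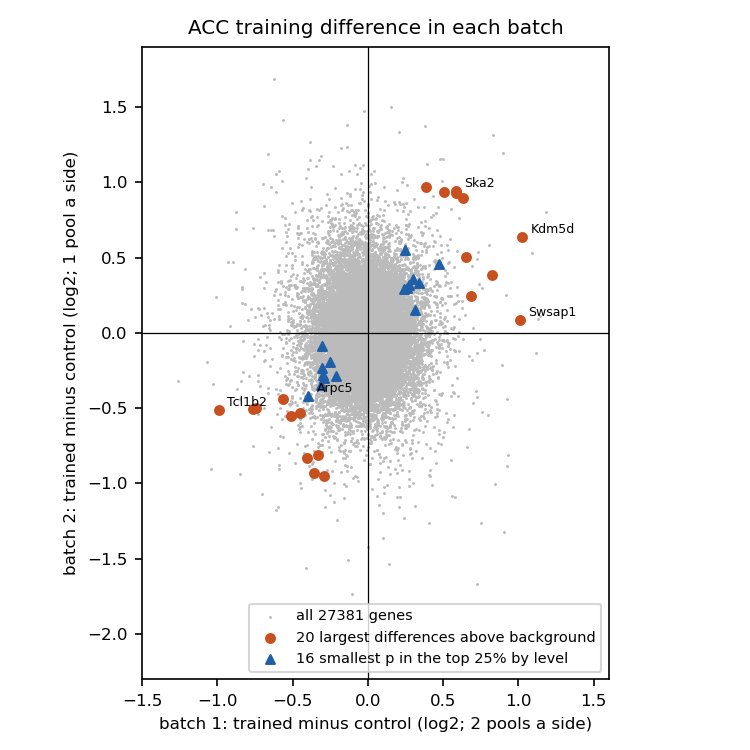
Trained minus control difference in batch 2 (vertical axis, log2, 1 pool a side) against batch 1 (horizontal axis, log2, 2 pools a side) for all 27381 genes. The cloud has no slope (r = 0.01 above background), and the marked genes lie in the quadrants of equal sign because their pools were required not to overlap or had small p.

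Principal components of the 6 ACC arrays were compared between the groups. The first component (23.3% of the variance of scaled genes) was 39.5 ± 80.0 in the trained pools and −39.5 ± 69.8 in the control pools (mean ± SD, two-sided exact permutation p = 0.2, n = 3 each). The second (22.3%) also overlapped (exact permutation p = 0.8). On the third (20.7%) the groups did not overlap, with an exact permutation p = 0.1, the smallest that 3 against 3 pools allow. For the genes at or above the median level alone, the third component (20.7%) was 48.4 ± 3.7 in the trained and −48.4 ± 6.2 in the control pools. The sign of a component is arbitrary, and 3 components were compared.

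The immediate early genes were mostly lower in the trained pools, most of all beside control pool 2. Of 28 measured genes, 25 had a negative difference, with a median of −0.10 against 0.00 over all genes. At an unadjusted p under 0.05, 3 were lower, beside 3.99% of all genes, and 0 were higher. Pools did not overlap for 3, all lower, beside 5.91% of all genes. The mean of the 28 genes was 5.77, 6.19 and 5.94 in control pools and 5.78, 5.96 and 5.81 in trained pools. Control pool 2 thus stood highest, and control pool 1 was level with the lowest trained pool. Without control pool 2, 13 of 28 genes were lower and the median was 0.01. Without trained pool 1, 19 were lower (median −0.03), and without control pool 1, 27 were lower (median −0.20). In batch 1, 22 were lower (median −0.09), and in batch 2, which does not hold control pool 2, 21 were (median −0.13). With the sex-linked index as a covariate the median was −0.02. In HC 22 of the 28 genes were lower, with a median of −0.08.

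Btg2, an antiproliferative gene switched on by activity and by p53, had the smallest p of the list. It was 4.60, 5.15 and 4.96 in control and 4.67, 4.40 and 4.46 in trained pools (−0.40, SE 0.15, adjusted p = 0.649 from limma). Atf3, a stress-induced transcription factor, was 3.34, 3.57 and 3.24 in control and 3.06, 2.93 and 3.29 in trained pools (−0.29, SE 0.11), with −0.46 in batch 1 and 0.05 in batch 2. Ier5 was 6.0, 6.11 and 6.13 in control and 5.51, 6.06 and 5.74 in trained pools (−0.31, SE 0.13, or −0.11 with the sex-linked index). All 3 genes overlapped between the groups in at least 1 pool. Fos, the AP-1 subunit used as a marker of active neurons, did not overlap, at 5.50, 5.92 and 5.59 in control and 5.28, 5.50 and 5.34 in trained pools, but its control pool 1 and trained pool 2 nearly met (−0.30, SE 0.17). Csrnp1 (−0.19, SE 0.09) and Per1 (−0.08, SE 0.08) were the other genes without overlap. Nr4a1, a nuclear receptor, differed by −0.26 (SE 0.13) and Npas4, which responds to calcium influx, by −0.13 (SE 0.15). Arc, whose protein regulates AMPA receptor removal, was 7.99, 8.50 and 8.10 in control and 7.98, 8.33 and 8.00 in trained pools (−0.09, SE 0.14). Egr1 differed by −0.01 (SE 0.10), and its sign turned in several alternatives.

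**Figure D4:**
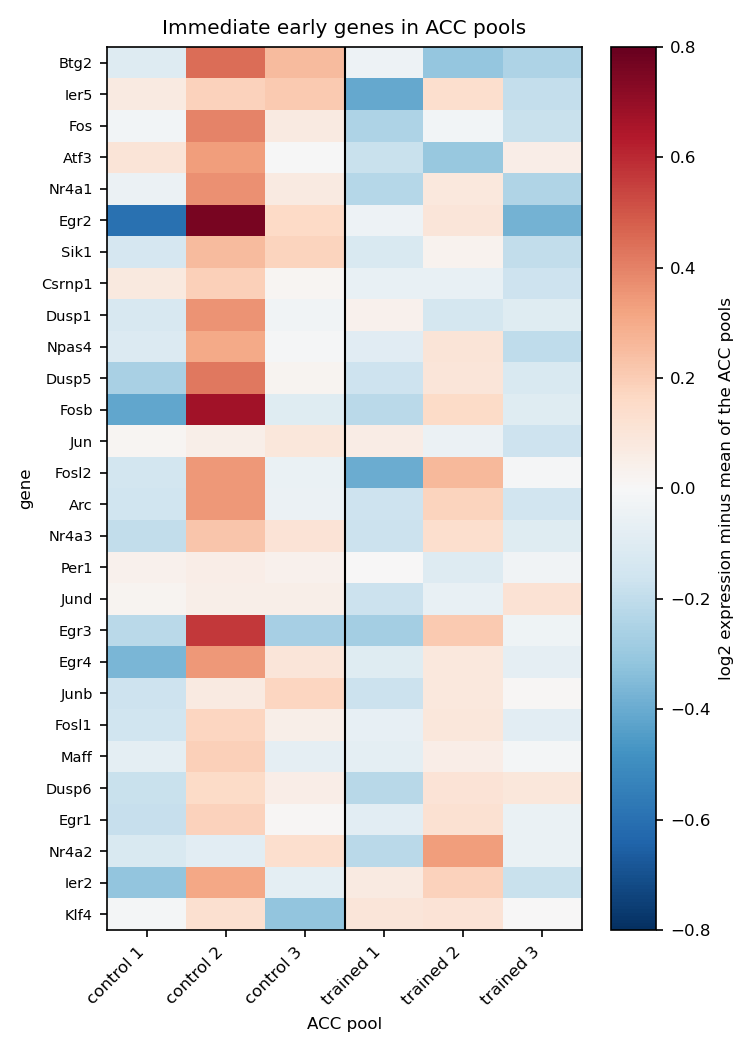
Log2 expression of the 28 immediate early genes in each ACC pool, centred on the mean of the 6 pools (colour scale, log2), ordered by the training difference from Btg2 (−0.40) at the top. Control pool 2 is the reddest column, and Fosb and Egr2 were highest in it and lowest in control pool 1.

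Many immediate early genes are known to respond through the cAMP response element (CRE), so their promoters were read. The list was made of activity-induced genes, so the motif shares below describe the list. Whether the motifs relate to the values of the pools or to training was not tested. RefSeq (GRCm38.p6) gave a promoter, 250 bases before to 50 after the start, for 22 of the 28 genes. The full element TGACGTCA, searched on both strands, occurred in 3 of the 22 (13.6%), Btg2, Dusp1 and Maff, and in 2.58% of all 18809 genes with a promoter. Its core TGACG, which the full element contains, occurred in 17 (77.3%), against 26.6% of all genes, and the CArG box of serum response factor in 2 (9.09%), against 1.73%. The promoters of Btg2 (chr1:134079106-134079405, minus strand) and Fos (chr12:85473640-85473939, plus strand) are shown 5′ to 3′, with the full element or, where it is absent, the core on the printed strand in capitals. Btg2 had the smallest p of the list. Fos, the marker of active neurons, was among the genes without overlap, as were Csrnp1 and Per1, which are not shown.
Btg2: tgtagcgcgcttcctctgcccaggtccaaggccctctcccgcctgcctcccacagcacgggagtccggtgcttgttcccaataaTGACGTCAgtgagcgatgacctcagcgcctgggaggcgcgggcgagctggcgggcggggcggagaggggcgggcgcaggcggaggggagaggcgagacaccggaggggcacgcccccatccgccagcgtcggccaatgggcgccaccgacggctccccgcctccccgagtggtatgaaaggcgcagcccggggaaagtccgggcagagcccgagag
Fos: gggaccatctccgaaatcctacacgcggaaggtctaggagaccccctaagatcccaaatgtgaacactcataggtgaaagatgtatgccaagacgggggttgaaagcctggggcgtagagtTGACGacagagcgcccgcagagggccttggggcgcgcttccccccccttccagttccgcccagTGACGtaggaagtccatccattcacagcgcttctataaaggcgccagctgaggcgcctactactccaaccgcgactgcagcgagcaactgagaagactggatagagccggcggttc

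The slower activity-regulated genes, such as growth factors and synaptic proteins made after the early wave, were split evenly, with 14 of 28 higher and 14 lower (median 0.00). One of them, Mfap3l, was 4.60, 4.76 and 4.52 in control and 4.82, 4.97 and 4.93 in trained pools (0.28, SE 0.08). Bdnf, the brain-derived neurotrophic factor, differed by −0.01 (SE 0.15).

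Genes of the synapse and of neuronal excitability had mostly small positive differences, as did well expressed genes in general. The potassium channel list held voltage-gated channels, which shape firing, and their accessory subunits. Of its 25 genes, 20 had a positive difference (median 0.06), and 17 to 23 did when each ACC array was left out in turn. The GABA receptor list held subunits of the main inhibitory receptors and the scaffold protein gephyrin. Of its 12 genes, 11 had a positive difference (median 0.06), but without control pool 1 only 7 did. The counts were 13 of 15 for postsynaptic scaffolds (9 without control pool 1), 14 of 19 for synaptic adhesion and 19 of 28 for vesicle release proteins. They were 15 of 23 for AMPA and kainate receptors, 8 of 12 for NMDA and metabotropic glutamate receptors and 16 of 26 for calcium and cAMP signalling genes. Besides kinases, the signalling list held adenylyl cyclases, calmodulins and the transcription factor Creb1. Over all genes above background 54.4% were positive, and over the top 25% by level, where most of these genes lie, 4275 of 6846 were, so the counts of the last 4 groups lay near that of genes at their level. None of the genes of these 8 lists had an unadjusted p under 0.05. Pools did not overlap upward for 3 potassium channel genes, 3 GABA receptor genes and 2 each of the scaffolds and of the NMDA and metabotropic receptors. The signalling list had 2 such genes, Creb1 and Prkar2b, and vesicle release and adhesion had 1 each. These counts stand beside 5.66% of all genes and 520 of the 6846. With the sex-linked index as a covariate the median was 0.10 for GABA receptors and −0.01 for NMDA and metabotropic receptors.

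Gabrg1, the gamma-1 subunit of the GABA-A receptor, was 5.21, 5.47 and 5.50 in control and 5.55, 5.63 and 5.65 in trained pools (0.22, SE 0.11). Gabbr2, a subunit of the GABA-B receptor, was 9.88, 9.87 and 9.80 in control and 9.89, 9.97 and 9.97 in trained pools (0.09, SE 0.07), so its trained pool 1 and control pool 1 nearly met. Grin2b, the NMDA receptor subunit of slow currents, was 8.77, 8.84 and 8.86 in control and 8.91, 8.89 and 9.04 in trained pools (0.13, SE 0.07). Kcnb2, a delayed rectifier, was 6.31, 6.26 and 6.33 in control and 6.39, 6.45 and 6.50 in trained pools (0.15, SE 0.08). The groups did not overlap for these 4 genes, though none passed the unadjusted threshold. Kcnh3, of the EAG family, differed by 0.15 (SE 0.08) and the GABA-A subunit Gabrb2 by 0.13 (SE 0.10).

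Among the receptors for monoamines and acetylcholine, 11 were higher and 13 lower. Drd4, a dopamine receptor of the prefrontal cortex, was 2.99, 2.98 and 3.15 in control and 2.73, 2.76 and 2.82 in trained pools (−0.27, SE 0.08), at the level of the background. Drd2 was 3.94, 3.54 and 3.49 in control and 3.24, 3.18 and 3.58 in trained pools (−0.32, SE 0.15), with −0.53 in batch 1 and 0.09 in batch 2. Drd2 also stands on the list of striatal neuron genes, of which 11 of 16 were lower in trained pools (median −0.08), but 8 of 16 in batch 2 (median 0.00). With the sex-linked index as a covariate the median was −0.02. Their mean level was 4.94, 4.87 and 4.86 in control and 4.78, 4.84 and 4.85 in trained pools.

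**Figure D5:**
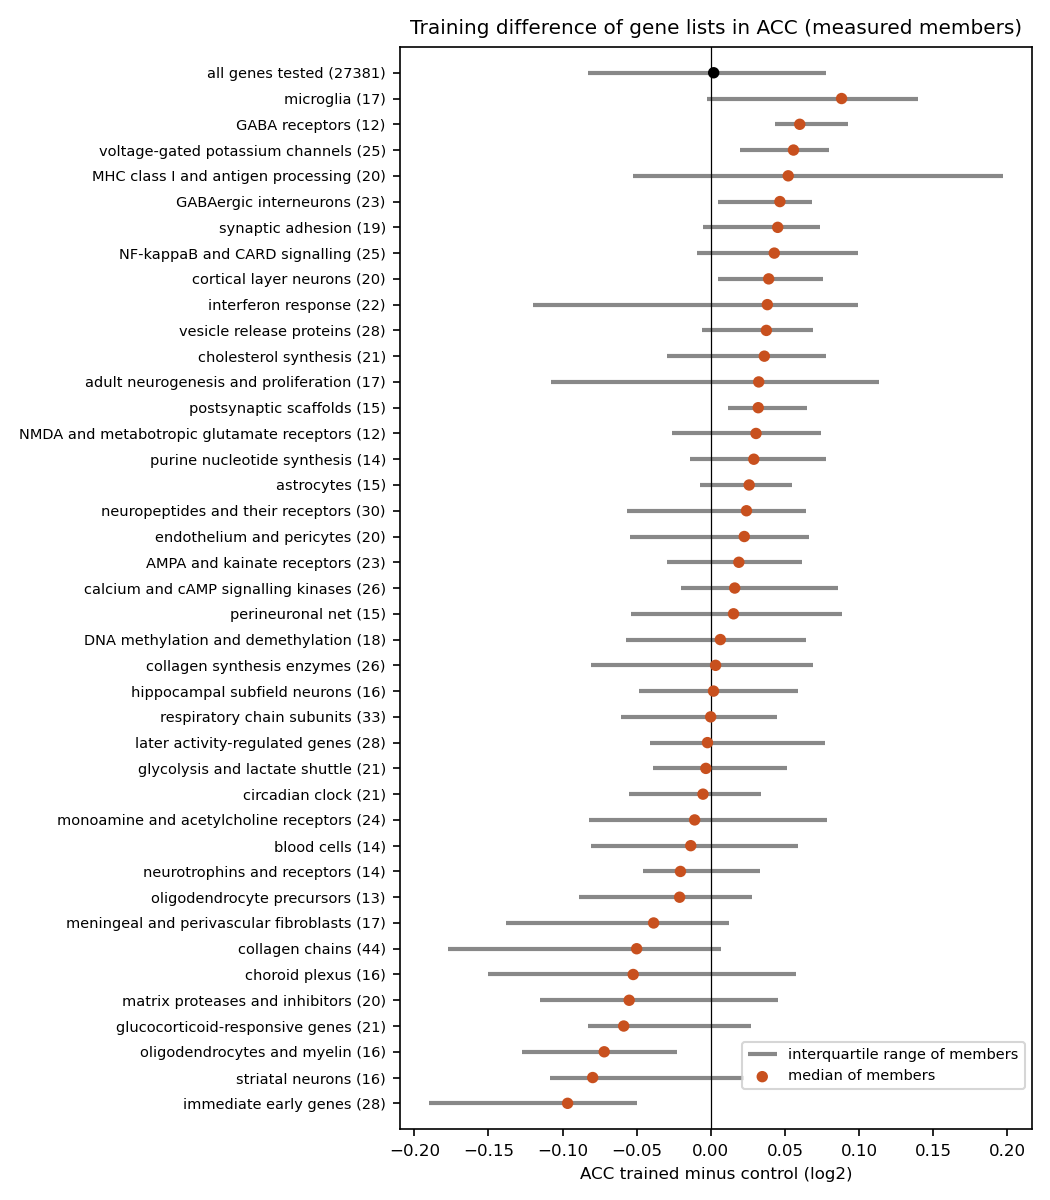
Median training difference in ACC (points, log2) with the interquartile range of members (bars) for 40 gene lists, and for all 27381 genes at the top in black. Medians run from −0.10 for immediate early genes to 0.09 for microglia, and most interquartile ranges cross 0.

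Several lists of cell type markers depended on single pools. Of 16 oligodendrocyte and myelin genes, 13 were lower in the trained pools (median −0.07), yet their mean level was 6.87, 6.07 and 6.28 in control and 6.49, 6.25 and 6.32 in trained pools. Control pool 1 was the highest, and the other control pools were level with or under the trained pools. Without control pool 1, 15 of the 16 were higher in the trained pools (median 0.13). In batch 1, 15 were lower and in batch 2, 8, and with the sex-linked index as a covariate the median was −0.16. Cldn11, a tight junction protein of myelin, was 8.00, 7.20 and 7.51 in control and 7.57, 7.29 and 7.35 in trained pools (−0.17, SE 0.16). Trf, the iron carrier transferrin, differed by −0.16 (SE 0.15), and both turned positive without control pool 1. Omg, though named for myelin, is also made by neurons and was not on this list.

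GABAergic interneuron genes were higher in 18 of 23 cases (median 0.05), 13 to 20 when an array was left out, but in batch 2 there were 11 higher and 12 lower (median 0.00). Dlx6, a transcription factor of forebrain interneurons, was 4.21, 4.11 and 4.26 in control and 4.36, 4.60 and 4.43 in trained pools (0.27, SE 0.08). Ndnf, a marker of layer 1 neurogliaform cells, was 4.66, 5.09 and 5.13 in control and 5.39, 5.35 and 5.08 in trained pools (0.31, SE 0.13), with 0.49 in batch 1 and −0.05 in batch 2. Cortical layer genes were higher in 15 of 20 cases (median 0.04) and astrocyte genes in 10 of 15 (median 0.03), and in batch 2 the medians of these lists were −0.03 and −0.02. Microglia genes were higher in 12 of 17 cases and had the largest median of the lists besides the sex-linked genes (0.09, or 0.05 to 0.13 when an array was left out), with 0 at an unadjusted p under 0.05. The microglia median was 0.08 in batch 1 and 0.00 in batch 2. In vessels, Rgs5, a marker of pericytes, was 8.14, 8.10 and 8.07 in control and 8.49, 8.27 and 8.21 in trained pools (0.22, SE 0.09). Cldn5, the tight junction protein of the blood-brain barrier, was 4.59, 4.79 and 4.96 in control and 4.75, 4.41 and 4.33 in trained pools (−0.28, SE 0.11), with −0.11 in batch 1 and −0.63 in batch 2.

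Of the matrix lists, the collagen chains were mostly lower. Of 44 collagen chain genes, 30 were lower in the trained pools (median −0.05), 29 to 34 when an array was left out, and in batch 1 and batch 2 alone 29 and 28 were lower. At an unadjusted p under 0.05, 5 were lower and 0 higher, and pools did not overlap for 8 downward and 1 upward, beside 3.99% and 5.91% of all genes downward. Median centring moved the median of the list to −0.01. In HC 29 of the 44 were higher (median 0.04). Col7a1, the chain of anchoring fibrils, was 3.54, 3.48 and 3.41 in control and 3.12, 3.21 and 3.24 in trained pools (−0.29, SE 0.08). Col18a1, a basement membrane collagen and source of endostatin, was 3.02, 3.00 and 3.10 in control and 2.79, 2.81 and 2.70 in trained pools (−0.27, SE 0.09). Col13a1, a membrane-spanning collagen, was 3.63, 3.70 and 3.71 in control and 3.39, 3.49 and 3.49 in trained pools (−0.22, SE 0.08). Col11a2 differed by −0.21 (SE 0.09) and Col8a1 by −0.30 (SE 0.14), or by −0.14 with the sex-linked index. All 5 genes were at low array levels, between 2.91 and 4.03 on average, and in each of them every trained pool was under every control pool. The trained pools of Col18a1 all lay under the background percentile of 2.83, and only its control pools were above it. The fibroblasts of the meninges and vessels, which make collagen, had 11 of 17 marker genes lower (median −0.04), but 6 without trained pool 2 and 16 without control pool 1. Their mean was 4.85, 5.07 and 5.02 in control and 5.12, 4.77 and 4.90 in trained pools, and their part in the collagen values was not tested. The 26 measured enzymes of collagen synthesis were split evenly, 13 higher and 13 lower (median 0.00), and of 15 genes of the perineuronal net, the matrix around inhibitory neurons, 8 were higher and 7 lower (median 0.02).

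Of 20 matrix proteases and their inhibitors 11 were lower. Mmp9, a gelatinase released by neurons during plasticity, was 3.25, 3.30 and 3.25 in control and 2.94, 2.86 and 2.90 in trained pools (−0.37, SE 0.10). Adamts1, an aggrecanase, was 4.32, 4.68 and 4.60 in control and 4.22, 4.23 and 4.32 in trained pools (−0.28, SE 0.09). Both had the same size of difference in the batches, −0.37 and −0.35 for Mmp9 and −0.27 and −0.28 for Adamts1.

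Immune genes went both ways. Of 25 genes of NF-kappaB and CARD signalling, the pathway of inflammatory and synaptic transcription, 18 were higher (median 0.04), 14 to 18 when an array was left out. Ikbkg, the regulatory subunit NEMO of the kinase that frees NF-kappaB, was 4.57, 4.81 and 4.85 in control and 4.84, 5.11 and 5.04 in trained pools (0.25, SE 0.11). Card6, the candidate gene of the study, was 2.42, 2.43 and 2.63 in control and 2.67, 2.52 and 2.70 in trained pools (0.13, SE 0.15), under the background percentile, with 0.12 in HC. Dnase1l2, an endonuclease, was 3.26, 3.43 and 3.41 in control and 3.39, 3.18 and 3.72 in trained pools (0.07, SE 0.17), and its sign turned in batch 1 alone (−0.06). Nfkb2 (0.02, SE 0.11), Ikbkb (−0.06, SE 0.09), Irf8 (0.10, SE 0.15) and the reference gene Ywhaz (−0.05, SE 0.08) differed by about 1 SE or less. The groups overlapped for Card6, Dnase1l2, Nfkb2, Ikbkb, Irf8 and Ywhaz.

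In the interferon response, an antiviral programme, 13 genes were higher and 9 lower of 22. Rsad2, the antiviral enzyme viperin, was 3.72, 3.71 and 3.66 in control and 3.30, 3.19 and 3.58 in trained pools (−0.34, SE 0.09). The related antiviral GTPases Mx1 (0.34, SE 0.13) and Mx2 (−0.23, SE 0.09) had opposite signs, both under the background percentile. Psmb8, the immunoproteasome subunit, was 3.82, 3.84 and 3.88 in control and 3.68, 3.58 and 3.52 in trained pools (−0.25, SE 0.08), while H2-M3, an MHC class Ib molecule, differed by 0.19 (SE 0.08). Of the 14 blood cell genes 10 were under the background percentile, among them Cd3e (−0.43, SE 0.09), of the T cell receptor complex, and S100a9 (−0.32, SE 0.11), of neutrophils.

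Metabolic lists had few members apart from 0. Among 21 cholesterol synthesis genes, 13 were higher, and Cyp51, the lanosterol demethylase, was 6.26, 6.22 and 6.33 in control and 6.52, 6.83 and 6.45 in trained pools (0.33, SE 0.10). Lss, lanosterol synthase, was 5.43, 5.49 and 5.47 in control and 5.59, 5.75 and 5.71 in trained pools (0.22, SE 0.08). Nsdhl, a later enzyme, differed by 0.18 (SE 0.08), and the early enzyme Mvd by −0.26 (SE 0.11), or by −0.09 with the sex-linked index. Of the 21 genes, 3 were higher and 1 lower at an unadjusted p under 0.05, beside 2.96% and 3.99% of all genes. In glycolysis and lactate exchange, 10 of 21 genes were higher. Aldoa, the aldolase of muscle and brain, differed by 0.24 (SE 0.09) and Slc2a3, the neuronal glucose carrier GLUT3, was 7.79, 7.87 and 7.92 in control and 7.97, 8.18 and 8.06 in trained pools (0.21, SE 0.09). Respiratory chain subunits were split 16 to 17, with Cox4i1, of complex IV, at −0.20 (SE 0.08).

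A few members of the remaining lists had an unadjusted p under 0.05. They were the neurotrophic factor Gdnf (−0.28, SE 0.11, under the background percentile), the clock-linked repressor Nfil3 (−0.25, SE 0.10), Uhrf1, which guides maintenance of DNA methylation (−0.23, SE 0.08), and in the neurogenesis list Dcx, of migrating young neurons (0.22, SE 0.09), and Sox4 (−0.27, SE 0.12). With the sex-linked index as a covariate Nfil3 differed by −0.15, Dcx by 0.14 and Sox4 by −0.18. Over the 794 measured genes of all 41 lists, 16 were higher (2.02%) and 23 lower (2.90%) at that level, beside 2.96% and 3.99% of all genes.

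By class of symbol, zinc finger genes and small RNA genes differed in direction. Of 444 zinc finger genes, DNA-binding proteins of which many repress transcription, 259 were higher, and at an unadjusted p under 0.05 there were 23 higher (5.18%) and 13 lower (2.93%), beside 2.96% and 3.99% of all genes. Their median was 0.04 in batch 1 and −0.01 in batch 2, where 226 were lower. Of 536 microRNA genes 300 were lower, with 18 higher (3.36%) and 32 lower (5.97%) at that level. In batch 1, 334 were lower, but in batch 2 only 237 were, and there the median was 0.04. The share lower at that level was not particular to microRNA genes. It was 5.6% for predicted genes, 5.7% for T cell receptor segments, 6.8% for immunoglobulin segments and 8% for ribosomal protein genes. For odorant receptor genes it was 4.14%, for vomeronasal receptor genes 4.33% and for other named genes 3.32%. Small nucleolar RNA genes, which guide chemical marking of ribosomal RNA, were lower in 75 of 113 cases, but their median was −0.22 in batch 1 and 0.20 in batch 2.

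A microRNA is a short RNA that pairs with messenger RNAs through its seed, bases 2 to 8. The array reads the transcript of the microRNA gene, so the mature microRNA was not measured separately. At an unadjusted p under 0.01 (0.654% of all genes higher and 1.08% lower) there were 11 microRNA genes, 1 higher and 10 lower in the trained pools. Mature sequences from RefSeq (GRCm38.p6) are shown, 5′ to 3′ with the seed in capitals, for the lower genes with the smallest p and for the pair that lie in 1 cluster of chromosome 12. No seed was shared among the 7 genes that matched the table. The positions are chr14:25534491-25534511 (plus strand) for miR-3075-3p, chr17:70860558-70860580 (minus strand) for miR-1195, chr12:109618305-109618326 (plus strand) for miR-370-3p and chr12:109743466-109743486 (plus strand) for miR-369-3p.
mmu-miR-3075-3p: aUCCUUGGccuuccuaggugu
mmu-miR-1195: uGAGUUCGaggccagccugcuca
mmu-miR-370-3p: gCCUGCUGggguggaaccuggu
mmu-miR-369-3p: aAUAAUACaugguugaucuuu

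Mir1195, the best expressed of these genes, was 7.42, 7.31 and 7.32 in control and 6.94, 6.88 and 6.89 in trained pools (−0.45, SE 0.10). The groups were far apart for this level, with −0.45 in batch 1 and −0.43 in batch 2, while in HC the difference was 0.35. Mir3075 was 2.76, 2.87 and 2.86 in control and 2.52, 2.42 and 2.37 in trained pools (−0.39, SE 0.08). Mir370 was 2.69, 2.87 and 2.67 in control and 2.13, 2.25 and 2.44 in trained pools (−0.47, SE 0.10). Both lay at or under the background percentile of 2.83. Mir369 was 3.91, 3.56 and 3.67 in control and 3.24, 3.12 and 3.24 in trained pools (−0.52, SE 0.13). Among the microRNA genes at an unadjusted p under 0.01, Mir328 had the largest difference. It was 3.12, 3.27 and 3.59 in control and 2.63, 2.44 and 2.80 in trained pools (−0.70, SE 0.17). All its trained pools lay under the background percentile, which its mean level exceeded only through the control pools.

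Mir370 and Mir369 belong to the imprinted Dlk1 to Dio3 locus (chr12:109452485-110281097), where a long RNA from the maternal chromosome carries a large set of microRNAs used in neurons. The locus was examined after these values were seen. Of its 53 microRNA genes on the array, 41 were lower in the trained pools (median −0.18), with 6 lower and 1 higher at an unadjusted p under 0.05 and 8 below without overlap, beside 3.99% and 5.91% of all genes. Of the other 483 microRNA genes 259 were lower (median −0.01), and of the 141 above background 90 were (median −0.08). The mean of the 53 genes was 3.93, 3.72 and 3.66 in control and 3.76, 3.45 and 3.67 in trained pools. Control pool 1 was high and trained pool 2 low, and the other 4 pools lay between 3.66 and 3.76. Without control pool 1, 35 genes were lower (median −0.08), and without trained pool 2, 31 (median −0.07). In batch 1, 46 were lower (median −0.23), in batch 2, 29 (median −0.05), and in HC 37 were higher (median 0.06). The long RNAs Meg3, Rian and Mirg of the locus overlapped between the groups. Meg3 was 9.63, 9.47 and 9.31 in control and 9.40, 9.11 and 9.26 in trained pools (−0.22, SE 0.15), Rian differed by −0.07 (SE 0.09) and Mirg by −0.10 (SE 0.11). Another transcript of the locus, 6430411K18Rik, did not overlap. It was 4.65, 4.43 and 4.33 in control and 4.30, 4.01 and 4.10 in trained pools (−0.33, SE 0.24). Gm25224 did not overlap either (−0.45, SE 0.15), at a level of 2.21, under background.

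Whether ACC differences were shared with HC was asked by the interaction term, HC minus ACC. It called 0 of 27381 genes at an adjusted p under 0.05 (smallest 0.107), with 2427 at an unadjusted p under 0.05 (8.86%). The HC contrast itself called 0, with 6.82% of genes at an unadjusted p under 0.05. Of the 20 genes with the largest ACC differences, 10 had the opposite sign in HC, and of the 16 well expressed genes 11 had. These genes were picked on their ACC side, so the counts are a description. Lce3d was lower in trained ACC pools (3.67 in control and 3.16 in trained on average) and higher in trained HC pools (2.85 and 3.70), an interaction of 1.36 (SE 0.23, adjusted p = 0.17 from limma). Prps1l3 ran the other way, with 3.69 and 4.23 in ACC and 4.69 and 4.15 in HC (−1.08, SE 0.23). Dlx6 had 4.19 and 4.46 in ACC and 4.30 and 3.98 in HC (−0.60, SE 0.11). For these genes neither pair of groups overlapped within its region. Tmem134 was higher in trained HC pools by 0.31 and Snapin differed there by −0.20, while Rbm12b2 differed by 0.28 in HC and 0.32 in ACC (interaction −0.03, SE 0.11).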

How the data were processed

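The authors hybridised pooled RNA to Affymetrix Mouse Gene 2.0 ST arrays and deposited log2 expression values made by Robust Multiarray Average with custom probe sets, 1 per Entrez gene. The submitters' processing notes name affy 1.62.0 and R 3.6.0. Any batch adjustment is not given in the sources used here. All value columns were matched by label (0 unused). Of 27381 probe sets, 26794 have 1 symbol and 587 were tested but not named.

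All 12 arrays entered 1 limma fit (version 3.58.1, lmFit and eBayes, R 4.3.3) with 4 group means and neither filter nor covariate. Benjamini-Hochberg adjustment covered every gene tested, with a threshold of 0.05. The procedure was also run on simulated data with independent noise for each gene and array and added shifts. These data held no batch, sex or scaling differences, so the behaviour of the procedure under them was not tested. Precision is limited by the 3 pools per group, not by a depth, which arrays lack.

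Members and the 41 lists (794 measured genes of 865 written) were chosen with earlier results of these data known. Named were the 10 largest differences each way (p under 0.01, no overlap, above the receptor 95th percentile, established symbol), the 8 smallest p each way in the top 25% by level, the study's genes, up to 3 members of each list by p, the family of the gene with the smallest p, and the sex-linked genes. Ighv1-34, Fos, Csrnp1, Per1, Nr4a1, Npas4, Arc, Egr1, Bdnf, Dusp1, Maff, Nsdhl, Col11a2, Col8a1, Cckbr, Prox1, Meg3, Rian, Mirg, 6430411K18Rik, Gm25224 and the microRNA genes are named outside this rule, after their values were seen. One further candidate gene of the study is not analysed here.

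The mice were paired as littermates, but which of them entered each pool is not given. Whether equal pool numbers pair the pools was checked by the correlation of their deviations from group means. It was 0.03, −0.01 and −0.27 for pools 1, 2 and 3, and the pools were not treated as pairs in the main fit. Alternatives were the pool number or batch as a block, batch 1 alone, ACC arrays alone, brighter genes alone, genes above background alone, arrays centred on their medians or quantile-normalized once more, array weights, eBayes with trend and robust settings, a sex index as a covariate, and leaving out each ACC array.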

Additional observations from a re-analysis of the deposited data

How the results depend on the processing

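In all 17 alternatives 0 genes had an adjusted p under 0.05 from limma. At an unadjusted p under 0.05 the main fit had 810 genes higher and 1092 lower. Median centring gave 1425 and 649, genes at or above the median level alone 469 and 388, and genes above background alone 499 and 536, where fewer genes were tested. With quantile normalization again there were 907 and 936. Leaving out 1 ACC array gave 652 to 1008 higher and 906 to 1176 lower. Genes without overlap numbered 2684 higher and 948 lower after median centring, and 903 and 569 among genes at or above the median level, against 1550 and 1619. With the pool number as a replicate block 672 genes were higher and 913 lower (batch as a block, 663 and 890), and the block changed no call. Tcl1b2 kept its direction in every alternative run for it, with an adjusted p from limma between 0.0789 (without control pool 3) and 0.897 (batch 1 alone).

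Of the 111 genes followed, 6 turned sign in an alternative other than leaving out an array. In batch 1 alone Dnase1l2 was −0.0561, Egr1 0.0176 and Tcl1b3 −0.158. Bdnf was 0.0104 with quantile normalization again, 0.0277 after median centring and 0.0195 with array weights, and Egr1 was 0.0293 after median centring. With the sex index as a covariate Bdnf was 0.176, Egr1 0.0925, Npas4 0.0570 and Xist 0.159, a gene that is part of that index. When 1 ACC array was left out, 12 genes turned, with lowest and highest differences of −0.207 and 0.0564 for Arc, −0.113 and 0.163 for Bdnf, −0.353 and 0.0496 for Cldn11, −0.0789 and 0.189 for Dnase1l2, −0.102 and 0.0835 for Egr1, −0.133 and 0.0131 for Ikbkb, −0.0110 and 0.225 for Irf8, −0.0461 and 0.0941 for Nfkb2, −0.145 and 0.0289 for Rian, −0.229 and 0.0506 for Tcl1b1, −0.0776 and 0.185 for Tcl1b3, and −0.316 and 0.0239 for Trf. The cause was not tested. The median of 24 of the 41 lists changed sign when at least 1 array was left out. The separation of the groups on the first component (0.99 SD) was 0.02 for genes at or above the median level, 0.99 unscaled and 1.00 adjusted for batch.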
